A study of Mus musculus with 12 samples.

Results

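Blood vessels of the dorsal root ganglion (DRG) bring endothelial cells, pericytes and smooth muscle cells with them when the ganglion is taken apart, and the RNA of 10 genes in common use as their markers was followed here: Kdr, Cdh5, Cldn5, Pecam1 and Tek for endothelium, Rgs5 and Pdgfrb for pericytes, and Acta2, Tagln and Myh11 for smooth muscle. The rule takes these genes by name out of 17915 gene names in the deposited tables, with no threshold on their values. Transcripts of 9 of the 10 were in both tables, and Tek was in neither. Of these 9, 8 had enough counts to be tested, and Pecam1 did not.

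The libraries came from DRG cells of adult C57B6 mice, cultured for 3 days on inserts with 1 µm pores, through which neurites grow while the cell bodies stay above. Each culture used the ganglia of 1 mouse and was GAR+/+ (WT below) or GAR+/- (het below), where GAR stands for the glycine and arginine rich region of nucleolin, an RNA-binding protein. Ribosomal RNA was depleted, and the neurites and the soma were sequenced apart, with 3 libraries for each of the 4 combinations and 14965973 to 32434916 counts per library. All cultures held serum and were grown on laminin, and the labels state no sorting step that would remove vascular cells. The labels call the cultures independent biological repeats, and the numbers 1 to 3 are theirs.

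An endothelial cell lines the vessel and needs the growth factor receptor Kdr (VEGFR2), the junction cadherin Cdh5 and the tight junction claudin Cldn5. Pericytes sit on capillaries, are drawn there by platelet-derived growth factor through its receptor Pdgfrb, and express Rgs5, which speeds the shut-off of G protein signals. Smooth muscle cells contract with the actin Acta2, the actin-binding protein Tagln and the myosin heavy chain Myh11, whose genes are switched on by serum response factor with myocardin-type partners. Acta2 and Tagln are also expressed by activated fibroblasts, whereas Myh11 is the most restricted of the 3.

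Levels are CPM, the counts scaled to a common library size, and between genes only CPM per kilobase of transcript is compared. Over the 12 libraries, Tagln had the highest mean at 453 CPM per kb, followed by Rgs5 at 92.7 and Acta2 at 47.9. Cdh5 stood at 8.46 CPM per kb and Kdr at 7.36. Cldn5 (1.52), Myh11 (0.861), Pdgfrb (0.170) and Pecam1 (0.108 CPM per kb) formed the low end. The library values of Tagln lay wholly above those of Rgs5, and those of Kdr wholly above those of Cldn5. Every other pair of neighbours in this order overlapped.

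The markers of each vascular cell type were thus present at very unequal levels, and several defining ones were not in both tables. Each table holds only transcripts with at least 5 counts in at least 3 of its 6 libraries, so this does not show that their RNA was absent. Among 36 other endothelial genes, Vwf, Robo4, Ly6c1, Slco1a4 and Lmo2 were in at most 1 table. The pericyte genes Abcc9, Anpep, Higd1b and Vtn, and the smooth muscle genes Myocd, Actg2 and Pln, were likewise not in both tables. The genes are therefore called by name below, and no cell type is assigned to the RNA. In such bulk libraries, fewer cells of a type and less RNA per cell cannot be told apart.

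Each of the 3 smooth muscle genes was lower in het than in WT for all 3 culture numbers in soma and for all 3 in neurites. Of all genes, 13.0% were lower in het for every number in both compartments. WT and het neurite libraries are matched by number alone. Tested over all genes, the difference passed for Myh11 in neurites, which fell 3.26-fold, where 3.27% of all genes passed. This call was lost without WT neurites 1, WT neurites 3, het neurites 2 or het neurites 3. It was also lost with only the neurite libraries in the fit. No tested endothelial or pericyte member passed in any comparison.

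Acta2 (ENSMUSG00000035783.9, GRCm38 chromosome 19, 34241090 to 34255590, minus strand) codes for smooth muscle alpha-actin. All its counts were on 1 protein-coding transcript of 9 exons. Its regulatory letters are shown because Acta2 and Myl9, which encodes a regulatory light chain of smooth muscle myosin, are classical targets of serum response factor. That factor binds the CArG box, which is C C, then 6 letters that are each A or T, then G G, and which reads the same way on both strands. The second motif searched on both strands was CATTCC, the MCAT element bound by TEAD factors, and the motifs did not overlap. The sequences describe these genes and were not measured here. Windows from RefSeq (GRCm38.p6) run from 250 bases before to 50 bases after each annotated start, and 5 of the 10 members had one, namely Acta2, Kdr, Cldn5, Rgs5 and Tek. The Acta2 window held 1 MCAT element and no exact match to this strict form of the CArG box. It did hold 2 stretches that differ from the strict form by 1 C or G among the 6 middle letters. This looser form was searched for after the sequence was seen. Whether serum response factor binds either stretch was not tested. The following 30-base stretches of the minus strand, at chr19:34255502-34255531, chr19:34255438-34255467 and chr19:34255388-34255417, have the match in capitals, which begins 146, 84 and 34 bases before the RefSeq start. GENCODE M21 starts Acta2 further upstream, so all 3 stretches lie within its annotated 5′ UTR and are promoter only by the RefSeq start. The fourth stretch, 206 bases at chr2:156775214-156775419 on the plus strand, is the Myl9 window up to the first annotated exon, with a CArG box 161 bases and a near match 99 bases before the start in capitals.
Acta2 MCAT element: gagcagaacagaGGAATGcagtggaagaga
Acta2 near CArG, distal: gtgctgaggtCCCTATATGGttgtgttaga
Acta2 near CArG, proximal: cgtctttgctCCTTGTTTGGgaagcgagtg
Myl9 upstream: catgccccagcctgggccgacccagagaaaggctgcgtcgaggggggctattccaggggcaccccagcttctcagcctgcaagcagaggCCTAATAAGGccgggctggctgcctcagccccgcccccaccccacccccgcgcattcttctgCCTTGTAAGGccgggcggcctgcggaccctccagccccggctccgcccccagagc

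Of all 32851 promoter windows of this length, 1.63% held a CArG box, 14.7% a CATTCC and 8.50% a near CArG box, and 0.679% held at least 2 near matches as Acta2 does. Kdr and Tek had 1 near match each, and Cldn5 and Rgs5 had no match to any of the 3 forms. A match describes the letters in the window and says nothing of what is bound there in these cells.

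Acta2 stood at 152, 53.1 and 117 CPM in WT soma for numbers 1, 2 and 3, and at 57.9, 24.9 and 60.7 CPM in het soma. In neurites it stood at 299, 72.4 and 125 CPM in WT, and at 90.8, 28.9 and 89.8 CPM in het. Number 2 was the lowest library of every group, and the WT and het ranges overlapped in both compartments because WT number 2 lay below the highest het libraries. For the same number, het over WT gave log2 ratios of -1.39, -1.09 and -0.94 in soma and of -1.72, -1.33 and -0.47 in neurites. In the fit over all genes, het over WT came to a log2 fold change (± SE) of -1.17 ± 0.68 for soma (adjusted p = 0.682). For neurites it came to -1.24 ± 0.68 (adjusted p = 0.342). Neither passed, and the spread of Acta2 between libraries of a group, a biological coefficient of variation of 0.551, was far above the median gene's 0.158.

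Tagln (ENSMUSG00000032085.5, chromosome 9, 45929619 to 45936058, minus strand), which codes for transgelin or SM22-alpha, was the most abundant member. It stood at 1189, 402 and 474 CPM in WT soma, and at 506, 211 and 370 CPM in het soma. In WT neurites it reached 2353, 603 and 738 CPM, and in het neurites 899, 299 and 624 CPM. Number 1 was the highest library of each group, WT neurites 1 stood apart from all others, and WT and het overlapped in both compartments. The log2 fold change of het over WT was -0.93 ± 0.69 in soma (adjusted p = 0.756) and -1.02 ± 0.69 in neurites (adjusted p = 0.442). Without WT neurites 1, the neurite value was -0.14. Of the exon bases of Tagln, 62.4% also lie in exons of the antisense gene Gm48529 and 5.43% in those of Pcsk7. The kit marks strand, but whether the authors' counting used it is not given in the sources used here. Acta2 shares long near-identical coding stretches with other actin genes, and how reads matching several of them were assigned is not given either.

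Myh11 (ENSMUSG00000018830.10, chromosome 16, 14194535 to 14291372, minus strand) was low but counted in all libraries, with 49 to 363 counts each. It stood at 4.42, 6.0 and 8.55 CPM in WT soma, and at 2.78, 1.90 and 3.99 CPM in het soma. In neurites it stood at 7.49, 8.88 and 14.1 CPM in WT, and at 4.35, 2.95 and 2.23 CPM in het. In both compartments every WT library was above every het library. The neurite means were 10.2 ± 3.5 CPM for WT and 3.18 ± 1.08 CPM for het (SD, 3 libraries per genotype). This was a fall of 3.26-fold, or -1.70 ± 0.34 on the log2 scale, with an adjusted p of 0.0243 by edgeR's quasi-likelihood test. It was 1 of 8 members called in neurites, where 3.27% of the 15990 genes tested were called and 2.78% were called lower. Groups that do not overlap, with het lower, were found for 10.8% of all genes in neurites. The adjusted p rose to 0.0516 without WT neurites 1, 0.0812 without WT neurites 3, 0.123 without het neurites 2 and 0.130 without het neurites 3. The call thus rested on each of these libraries. In the same order, these fits called 50, 0, 0 and 0 of all genes tested. With 1 library left out, the log2 fold change of Myh11 ranged from -1.98 to -1.38. With only the 6 neurite libraries in the fit, it was -1.68 with an adjusted p of 0.0879, and 0 of 15028 genes were called.

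In soma, Myh11 was 2.20-fold lower in het (log2 fold change -1.13 ± 0.34, adjusted p = 0.225). No member was called in soma by edgeR, nor was any of the 15990 genes (0.00%), while 9.16% of genes and 1 of 8 members, Myh11, had an unadjusted p below 0.05. DESeq2, which called 315 of the 15990 genes, called Myh11 alone among the members (adjusted p = 0.0335). Same-numbered WT and het soma libraries deviated together, so the culture number was also fitted as a block. The block was 1 effect per number over all 12 libraries. It thus also joined same-numbered WT and het neurite libraries, which were not taken as paired. With that block, Acta2 was called lower in het soma (-1.13 ± 0.22, adjusted p = 0.0258) and so was Myh11 (-1.13 ± 0.29, adjusted p = 0.0464), while Tagln was not (-0.84 ± 0.22, adjusted p = 0.0813). With the block, 3.25% of all genes were called in soma and 3.09% were called lower. In the fit without the block, non-overlapping groups with het lower were found for 11.9% of genes in soma.

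Over both compartments, Acta2, Tagln and Myh11 were each lower in het in 6 of 6 same-numbered pairs, a pattern that 13.0% of all genes shared. In soma alone 21.3% of genes were lower in 3 of 3 pairs, and in neurites 21.4%. The compartments of a culture are not independent of each other, and WT and het neurite libraries of 1 number are matched by that number alone. The median log2 fold change of the 3 genes was -1.13 in soma and -1.24 in neurites, against 0.01 and -0.01 over all genes tested.

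**Figure D1:**
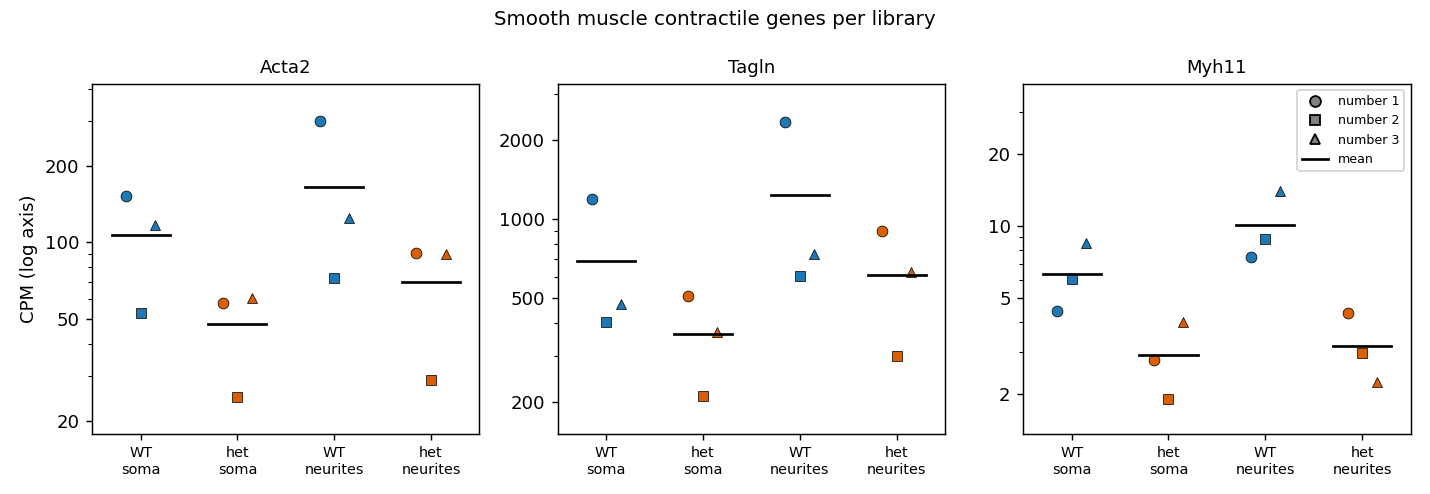
Level of Acta2, Tagln and Myh11 in each of the 12 libraries, in CPM on a log axis, by genotype and compartment (symbols mark the culture number, bars the mean of 3 libraries). For Myh11 the highest het neurite library, at 4.35 CPM, lies below the lowest WT neurite library, at 7.49 CPM, whereas the groups of Acta2 and Tagln overlap.

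The authors' deposited table, which tests each transcript within a compartment, lists all 3 genes as lower in het in both compartments. For the Acta2 transcript the authors' deposited table gives a log2 fold change of -1.14 in soma with a false discovery rate of 1.06e-23. In neurites the authors' deposited table gives -1.15 for Acta2, with a rate of 2.02e-05. For Myh11, the authors' deposited table has -1.12 (6.41e-06) in soma and -1.66 (3.46e-05) in neurites, and for Tagln -0.83 (6.52e-07) and -0.86 (0.0018). Fold changes in the authors' deposited table thus had the same sign and similar size as those fitted here, with far smaller error rates. There, 4.24% of soma transcripts and 3.02% of neurite transcripts had a rate under 0.05, with 3.45% and 2.64% lower in het. None of the transcripts of the other members did.

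Among 26 other smooth muscle and contractile genes, 23 were tested. Mylk, the kinase that switches on smooth muscle myosin, was the only one to pass in het against WT neurites. Of all genes tested, 3.27% passed there. Mylk stood at 15.5, 13.5 and 14.2 CPM in WT neurites against 11.5, 7.83 and 8.50 CPM in those of het. It fell 1.56-fold (log2 fold change -0.64 ± 0.17, adjusted p = 0.0495), a value at the edge of the threshold: with another scaling of the libraries the adjusted p was 0.0521. It also missed the threshold without WT neurites 1 (0.156), WT neurites 3 (0.112), het neurites 2 (0.200) or het neurites 3 (0.195). In the same order, these fits called 50, 0, 0 and 0 of all genes tested. The list's median was -0.44 in neurites and -0.30 in soma, with 17 of 23 genes below 0 in each. Mustn1 went the other way, 1.51-fold higher in het neurites with groups that did not overlap (het higher in this way for 7.53% of all genes). Its log2 fold change was 0.60 ± 0.16, with an adjusted p of 0.050002 by edgeR's quasi-likelihood test, just over the threshold. With the culture number as a block, Mustn1 (adjusted p = 0.00416) and Mkl2 (0.0285) were called higher in het neurites.

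In soma none of the 23 passed (5 lower and 1 higher at an unadjusted p below 0.05, against 9.16% of all genes). Cnn1, a calponin that restrains actomyosin, stood at 1.85, 0.852 and 2.18 CPM in WT soma and at 0.634, 0.155 and 0.688 CPM in het soma. Lmod1, which starts actin filaments in smooth muscle, stood at 1.69, 1.12 and 2.67 CPM in WT soma and at 0.845, 0.505 and 0.550 CPM in het soma. All WT soma libraries of both genes were above all het soma libraries, as for 11.9% of all genes. Their log2 fold changes were -1.71 ± 0.48 (adjusted p = 0.183) and -1.49 ± 0.36 (adjusted p = 0.144). With the culture number as a block, 4 of the 23 were called lower in soma, namely Cnn1 (adjusted p = 0.039), Lmod1 (0.0131), Crip1 (0.0013) and Myl9 (0.000237). Of all genes, 3.09% were called lower with the block. Myl9, whose upstream letters are shown above, stood at 38.4, 18.4 and 25.8 CPM in WT soma and at 18.6, 7.42 and 9.81 CPM in het soma, a 2.29-fold difference with overlapping groups. Myl9 was chosen for its sequence after its values were seen.

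Of 13 early response and cytoskeletal targets of serum response factor, Egr2 alone passed in neurites, where 3.27% of all genes passed. This transcription factor, which also drives myelin genes in Schwann cells, stood at 9.37, 10.5 and 10.9 CPM in WT neurites against 5.47, 4.80 and 5.81 CPM in those of het. It fell 1.92-fold (log2 fold change -0.94 ± 0.17, adjusted p = 0.0203), and the call was lost without WT neurites 3 (0.0666), het neurites 2 (0.121) or het neurites 3 (0.0946). No gene at all was called in those fits. None of the 13 passed in soma, where 2 were lower at an unadjusted p below 0.05. Of all genes, 9.16% had such a p in soma, in either direction. CArG boxes were in 6 of 31 promoter windows of the smooth muscle list (19.4%; Ldb3, Myl6, Myl9, Srf and Vcl) and in 6 of 11 windows of the early targets (54.5%; Actg1, Egr2 and Srf). The 31 windows belonged to 23 genes and the 11 windows to 7 genes. Overlapping windows of Egr2 and of Ldb3 counted the same box more than once. The early list was put together as known targets of the factor, and the other as smooth muscle and contractile genes. Srf itself was on both lists, so the shares are a description.

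Other cell types' markers moved with genotype in the same libraries. The summed level of 16 proliferation genes ran from 925 to 1260 CPM in WT soma and from 444 to 588 CPM in het soma, and from 1130 to 1933 CPM in WT neurites and 569 to 1018 CPM in het neurites. In neurites 9 of the 16 fell in het, against 2.78% of all genes. In soma none passed, as none of the 15990 genes did, though all 16 were below 0. With the culture number as a block, 13 of the 16 were called lower in soma, against 3.09% of all genes. The 14 fibroblast markers summed to 1502 to 2886 CPM in WT and 881 to 1794 in het soma, and to 1333 to 4145 in WT and 1076 to 2184 in het neurites. Of these 1 fell in neurites, and none passed in soma without the block and 2 were lower with it (Pi16 was not in both tables). The part of proliferating cells and fibroblasts in the smooth muscle result was not tested.

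The 14 Schwann cell markers summed to 2580 to 2862 CPM in WT soma and 2336 to 2544 in het soma, and to 2725 to 2849 in WT neurites and 1947 to 2500 in het neurites, where 3 of 14 fell. The 10 satellite glia markers ranged from 741 to 920 CPM in WT and 758 to 860 in het soma, and from 875 to 1023 in WT and 793 to 903 in het neurites, where 3 of 10 fell. The 15 neuron markers were the other way round: 14033 to 16143 CPM in WT and 15650 to 18567 in het soma, 10384 to 13550 in WT and 11929 to 15657 in het neurites, where 1 of 15 rose. Of all genes tested, 2.78% were called lower and 0.494% higher in het neurites. With the block, 3 Schwann cell markers, 2 satellite glia markers and no neuron marker were called lower in het soma, where 3.09% of all genes were. The part of these cells in the smooth muscle result was not tested either. The macrophage list summed to 158 to 253 CPM in WT and 205 to 428 in het soma, and to 98.7 to 202 in WT and 130 to 326 in het neurites. None of its 9 tested genes passed, 1 was called higher in het soma with the block, and the median log2 fold change was 0.35 in soma and 0.25 in neurites. Of 15 macrophage markers Aif1, Cx3cr1, Fcgr3, Itgam and Ptprc were not in both tables.

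**Figure D2:**
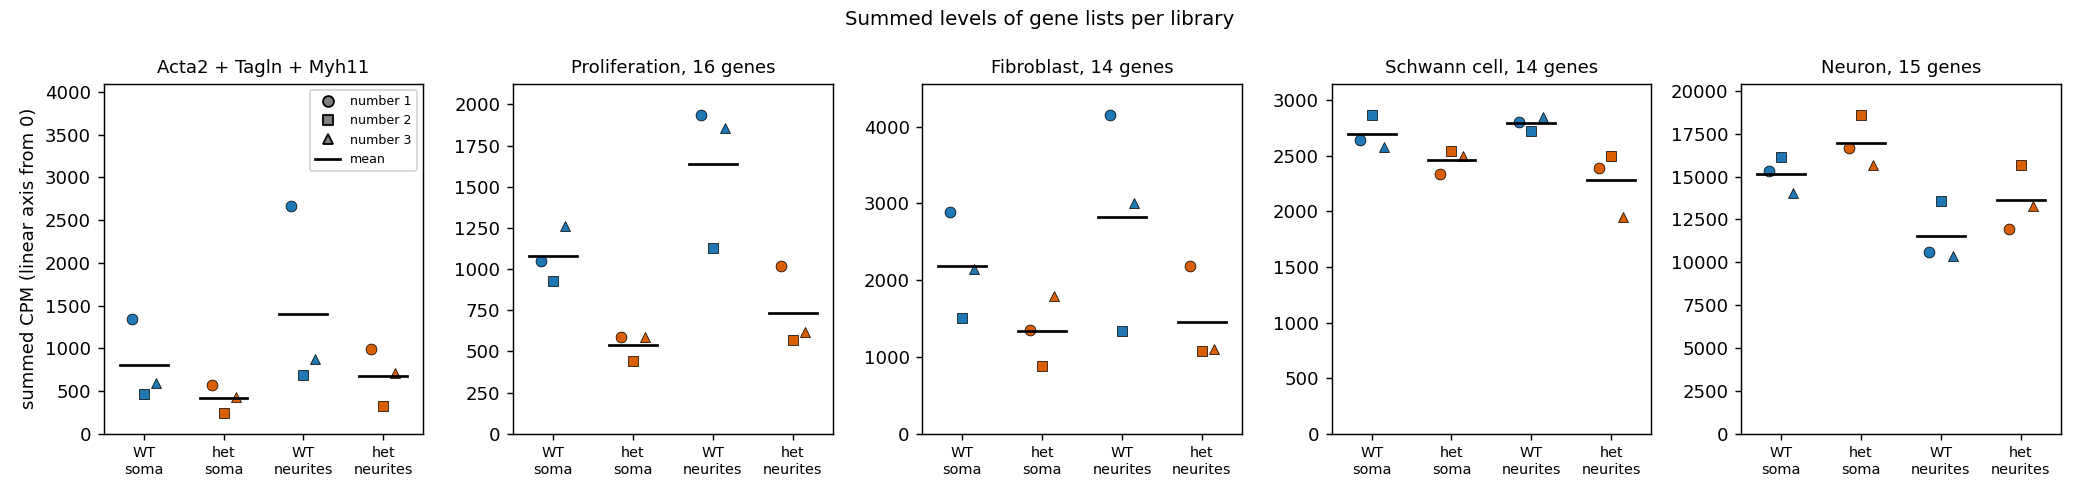
Summed CPM per library, on linear axes from 0, of the 3 smooth muscle members and of 4 lists of other markers (symbols mark the culture number, bars the mean of 3 libraries). Proliferation genes do not overlap between WT and het, with 444 to 588 CPM in het soma under 925 to 1260 in WT soma, while the summed smooth muscle members do overlap.

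Kdr (ENSMUSG00000062960.10, chromosome 5, 75932827 to 75978458, minus strand) codes for the main growth factor receptor of endothelium, and 99.1% of its soma counts were on 1 protein-coding transcript of 30 exons. It stood at 30.5, 34.6 and 63.6 CPM in WT soma, and at 44.5, 43.7 and 56.1 CPM in het soma. In neurites it stood at 38.4, 26.8 and 65.4 CPM in WT, and at 42.9, 43.9 and 27.5 CPM in het. WT number 3 was the highest library in each compartment, and the genotypes overlapped in both. The log2 fold change of het over WT was 0.17 ± 0.36 in soma (adjusted p = 0.928) and -0.20 ± 0.36 in neurites (adjusted p = 0.799).

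Cdh5 (ENSMUSG00000031871.9, chromosome 8, 104101625 to 104144511, plus strand), the adhesion protein of endothelial junctions, had the same shape. It stood at 24.9, 26.3 and 48.2 CPM in WT soma, and at 31.4, 29.4 and 43.3 CPM in het soma. In neurites it stood at 36.8, 19.9 and 50.1 CPM in WT, and at 42.2, 30.9 and 22.1 CPM in het. Het neurites 3 was low for both genes, and WT neurites 2 was too. Het over WT gave 0.07 ± 0.38 in soma (adjusted p = 0.974) and -0.18 ± 0.38 in neurites (adjusted p = 0.835).

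Cldn5 (ENSMUSG00000041378.2, chromosome 16, 18776847 to 18778262, plus strand), a single-exon gene of the blood-nerve and blood-brain barrier, had 23 to 107 counts per library. Its levels were 1.77, 1.16 and 2.98 CPM in WT soma, and 3.23, 2.95 and 2.48 CPM in het soma. In neurites they were 1.61, 1.82 and 3.04 CPM in WT, and 2.23, 1.57 and 1.07 CPM in het. The 3 het soma libraries were all above the 3 het neurite libraries, as for 10.6% of all genes, and WT showed no such order. Het over WT gave 0.56 ± 0.34 in soma (adjusted p = 0.678) and -0.46 ± 0.36 in neurites (adjusted p = 0.505).

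Pecam1 (ENSMUSG00000020717.19, chromosome 11, 106654217 to 106750628, minus strand), or CD31, was near the limit of detection. Counting all 4 of its transcripts in the soma table, it had 17, 19 and 34 counts in WT and 31, 31 and 13 in het. Only 1 of these, a retained-intron transcript, was also in the neurite table, with 0, 0 and 12 counts in WT and 5, 8 and 5 in het. The counts of 0 in WT neurites 1 and 2 allow up to 3 counts, or 0.21 and 0.202 CPM, by counting error alone. Pecam1 had too few counts for the main fit, so its genotype difference was not tested there.

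Of the 36 other endothelial genes, 30 were tested, and none passed in soma or neurites. At an unadjusted p below 0.05, 1 was lower in soma and none in neurites. Of all genes, 9.16% in soma and 20.9% in neurites had such a p, in either direction. The median log2 fold change of het over WT was 0.04 in soma and -0.16 in neurites. Ramp2, a partner of the adrenomedullin receptor, had the smallest p in soma, at 1.35, 0.813 and 0.668 CPM in WT and 0.422, 0.311 and 0.550 CPM in het (log2 fold change -1.15 ± 0.42, adjusted p = 0.362). Tie1, a receptor-like kinase of endothelium, lay the other way in soma, at 0.231, 0.349 and 0.712 CPM in WT and 0.513, 0.815 and 1.33 CPM in het (1.03 ± 0.52, adjusted p = 0.597). The list thus had members on either side of 0 and no call. In sum it ran from 506 to 770 CPM in WT and 618 to 753 in het soma, and from 452 to 756 in WT and 472 to 653 in het neurites.

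**Figure D3:**
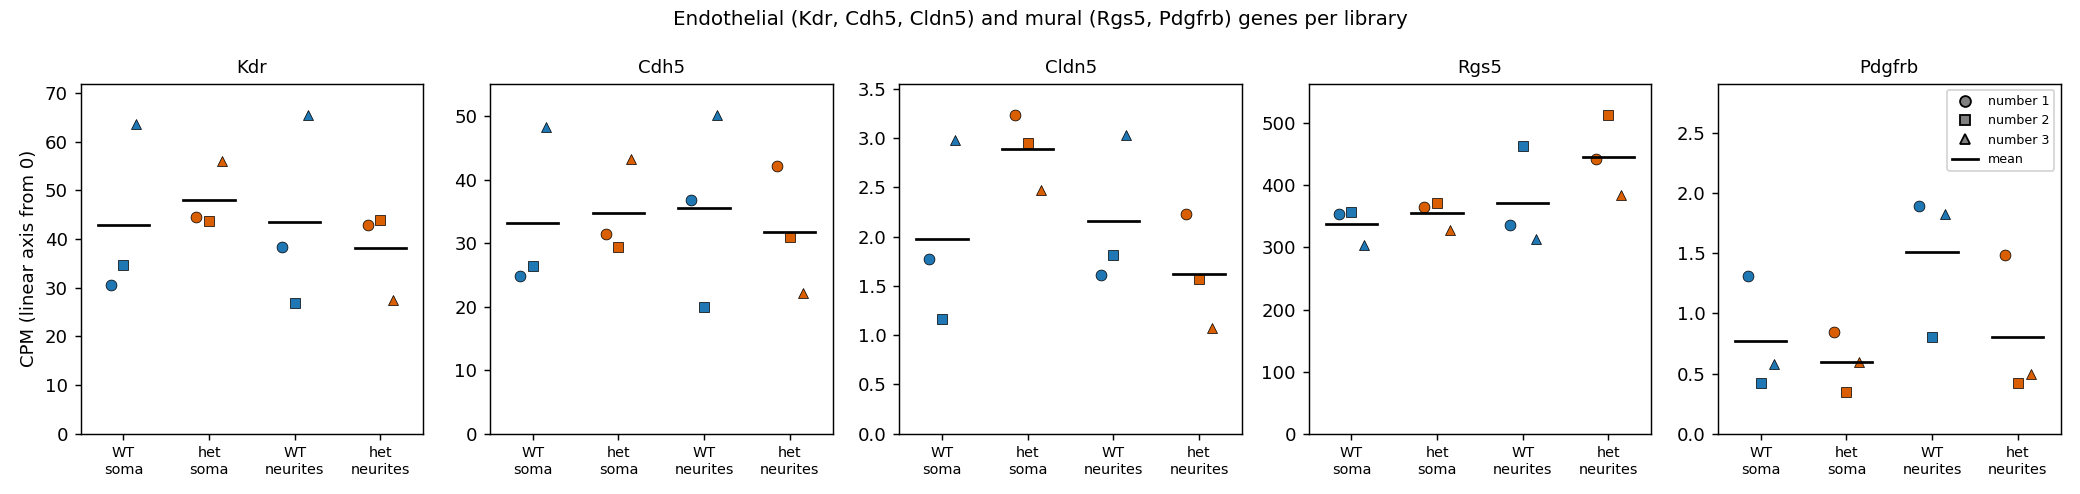
Level of the endothelial members Kdr, Cdh5 and Cldn5 and the pericyte members Rgs5 and Pdgfrb in each library, in CPM on linear axes from 0 (symbols mark the culture number, bars the mean of 3 libraries). WT number 3 is the highest Kdr library in both compartments, at 63.6 and 65.4 CPM, and Rgs5 stays between 305 and 513 CPM throughout.

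The endothelial genes varied together from library to library. Across the 12 libraries, the Pearson correlation of log2 CPM between Kdr and Cdh5 was 0.93, and that of Kdr with Cldn5 was 0.74. The 5 genes most like Kdr by this measure, out of all genes tested, were Flt1 (0.96), Cdh5 (0.93), Plvap (0.93), Gata6 (0.92) and Cxcl12 (0.90). Flt1 is the second VEGF receptor and Plvap forms the diaphragms of fenestrated endothelium. Flt1 ran from 18.2 CPM in het neurites 3 to 39.2 CPM in WT soma 3, and Plvap from 18.8 CPM in WT neurites 2 to 59.0 CPM in WT soma 3. Gata6 averaged 0.439 CPM, close to the detection limit. These 12 points share cultures and libraries, so the values describe the set.

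Among the smooth muscle genes, Acta2 and Tagln correlated at 0.93, Acta2 and Myh11 at 0.59, and Tagln and Myh11 at 0.45. Pdgfrb correlated with Tagln at 0.86 and with Acta2 at 0.80. Between the 3 smooth muscle and the 3 tested endothelial genes the values ran from -0.24 for Tagln with Kdr to 0.38 for Myh11 with Cdh5. The 5 genes most like Tagln were Cnn2 (0.98), Aif1l (0.98), Lurap1l, Med14 and Shank2 (0.97 each). Cnn2, the calponin of non-muscle cells, ran from 79.9 CPM in het soma 2 to 574 CPM in WT neurites 1. Aif1l, an actin-bundling protein, ran from 43.6 to 343 CPM over the same 2 libraries. All 3 genes were thus highest in WT neurites 1 and lowest in het soma 2.

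**Figure D4:**
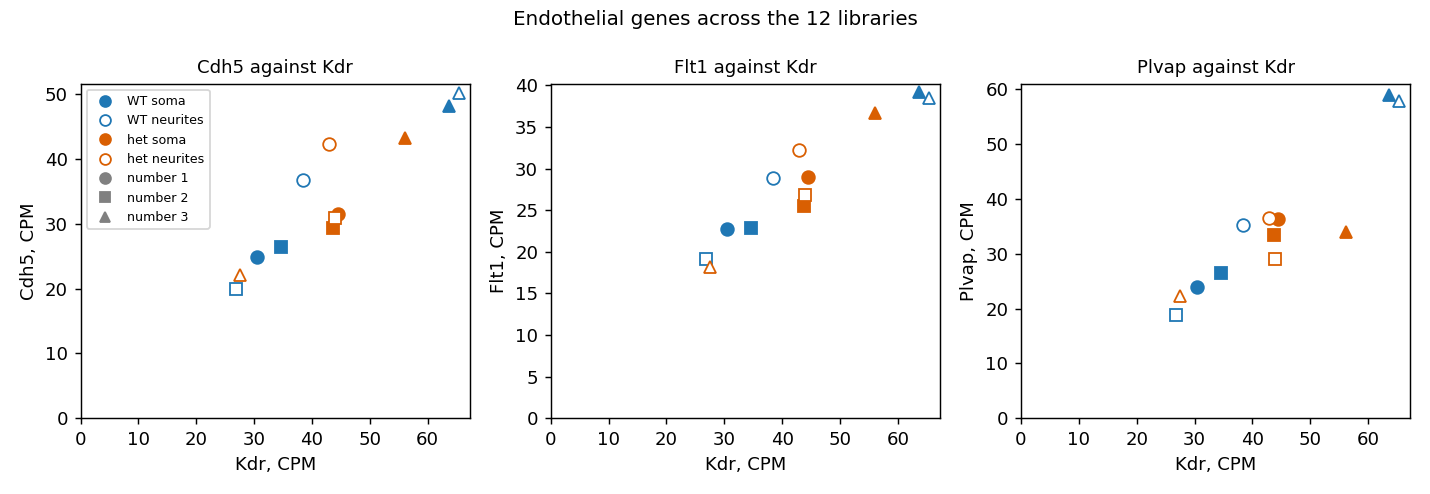
Cdh5, Flt1 and Plvap against Kdr in the 12 libraries, in CPM (filled symbols soma, open symbols neurites, colours the genotype, shapes the culture number). All 3 genes go up with Kdr, from WT neurites 2 and het neurites 3 at the low end to WT number 3 at the high end, where Kdr reaches 65.4 CPM.

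Rgs5 (ENSMUSG00000026678.10, chromosome 1, 169655501 to 169695813, plus strand) was the steadiest member. It stood at 354, 357 and 305 CPM in WT soma, and at 366, 371 and 329 CPM in het soma. In neurites it stood at 336, 463 and 314 CPM in WT, and at 442, 513 and 384 CPM in het. Its highest library was 1.68 times its lowest, against 12 times for Acta2 and 11.2 times for Tagln. Het over WT gave 0.07 ± 0.14 in soma (adjusted p = 0.922) and 0.27 ± 0.14 in neurites (adjusted p = 0.299). Without WT neurites 2, the neurite value was 0.46 with an adjusted p of 0.0295, in a fit that called 1767 of 16317 genes. For each number, het was above WT by a log2 ratio of 0.15 to 0.40 in neurites.

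Rgs5 did not vary with the other vascular genes: its correlation over the 12 libraries was -0.48 with Kdr, -0.50 with Cdh5, -0.22 with Pdgfrb and -0.20 with Tagln. The 5 genes most like it were Abcf3 (0.89), Fndc3a (0.88), Zfp13 (0.88), Zfr (0.87) and Bicd1 (0.87), none of which is on a vascular list used here. Bicd1 is an adaptor of the motor protein dynein and Zfr an RNA-binding zinc finger protein. Which cells the Rgs5 RNA came from was not measured. On the scale per kb, Rgs5 lay far above Pdgfrb, at 92.7 against 0.170 CPM per kb, although both are used as pericyte markers.

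Pdgfrb (ENSMUSG00000024620.11, chromosome 18, 61045150 to 61085061, plus strand) had 9 to 47 counts per library. It stood at 1.31, 0.426 and 0.579 CPM in WT soma, and at 0.845, 0.349 and 0.596 CPM in het soma. In neurites it stood at 1.89, 0.807 and 1.83 CPM in WT, and at 1.49, 0.422 and 0.495 CPM in het. Number 2 was the lowest in every group, as for Acta2, and the genotypes overlapped in both compartments. Het over WT gave -0.35 ± 0.56 in soma (adjusted p = 0.894) and -0.97 ± 0.54 in neurites (adjusted p = 0.324).

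Of 13 other pericyte genes tested, 2 fell in het neurites, where 2.78% of all genes fell. Des, the intermediate filament desmin, stood at 5.25, 4.30 and 4.05 CPM in WT neurites against 2.07, 1.61 and 2.14 CPM in those of het, a 2.33-fold fall (log2 fold change -1.22 ± 0.22, adjusted p = 0.018). Notch3, the Notch receptor of arterial mural cells, stood at 22.4, 12.8 and 25.8 CPM in WT neurites against 12.2, 10.6 and 7.30 CPM in those of het, a 2.04-fold fall (-1.03 ± 0.25, adjusted p = 0.0403). All WT neurite libraries were above all het ones for both genes, as for 10.8% of all genes. Both calls were lost without WT neurites 1 (0.064 and 0.136), WT neurites 3 (0.055 and 0.126), het neurites 2 (0.121 and 0.136) or het neurites 3 (0.0946 and 0.175). In the same order, these fits called 50, 0, 0 and 0 of all genes tested.

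In soma none of the 13 passed (4 lower at an unadjusted p below 0.05, against 9.16% of all genes in either direction). Des stood at 2.73, 2.48 and 2.36 CPM in WT soma and at 1.15, 1.05 and 0.779 CPM in het soma (log2 fold change -1.33 ± 0.23, adjusted p = 0.082). With the culture number as a block, Des was called lower in het soma (adjusted p = 0.00357). The median log2 fold change of the 13 genes was -0.30 in soma and -0.41 in neurites, with 10 of 13 below 0 in each.

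The ligands that act on these cells did not pass in either compartment: of 19 tested, 5 were lower in het neurites and 1 in het soma at an unadjusted p below 0.05, and 0 were called by edgeR. In het against WT neurites, 20.9% of all genes had an unadjusted p below 0.05, and in soma 9.16%. Pdgfa, a platelet-derived growth factor, stood at 42.2, 28.7 and 25.4 CPM in WT neurites against 24.3, 18.3 and 22.6 CPM in those of het (log2 fold change -0.56 ± 0.17, adjusted p = 0.0822). Pgf, the placental growth factor, averaged 7.26 and 4.48 CPM (-0.70 ± 0.27, adjusted p = 0.153). Of 16 receptors, Notch3 alone passed, in neurites. The median log2 fold change in neurites was -0.39 for the ligands and -0.23 for the receptors.

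**Figure D5:**
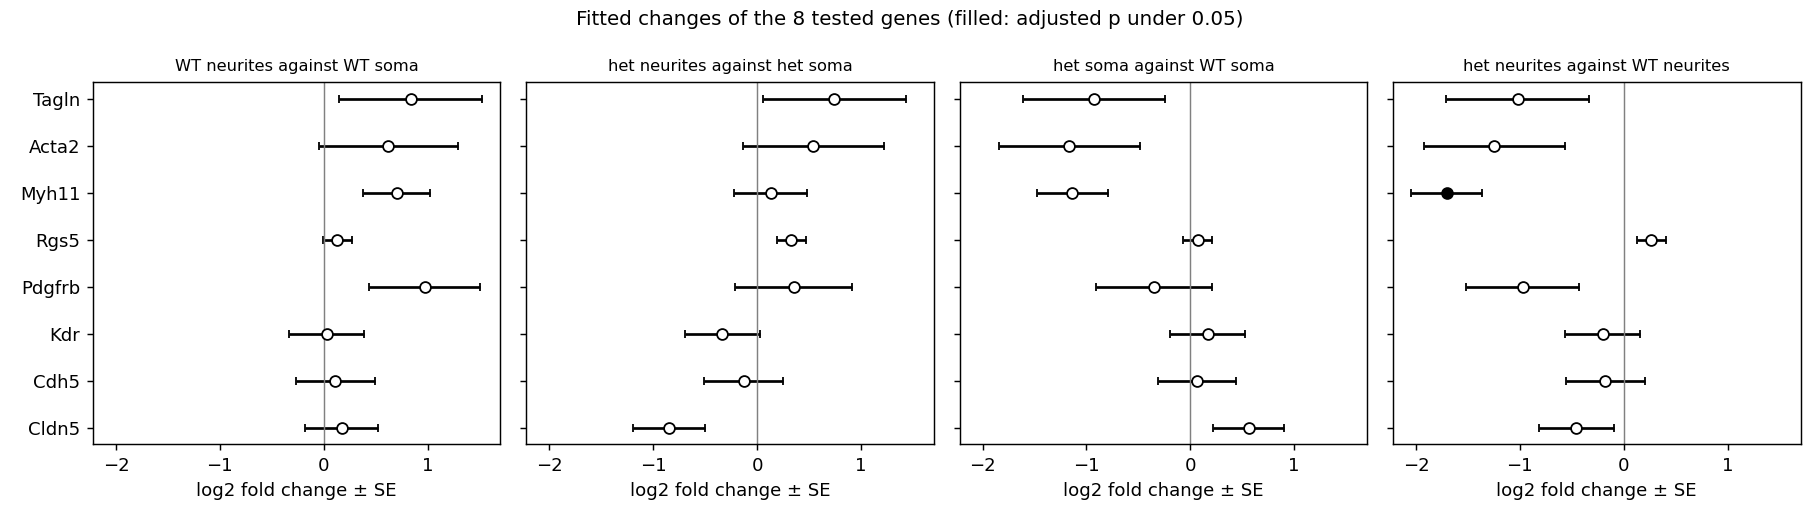
Fitted log2 fold changes (points) with their standard errors (bars) of the 8 tested members in 4 comparisons. The filled point, Myh11 in het against WT neurites at -1.70, is the only one with an adjusted p under 0.05.

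The comparison of neurites with soma asked whether the RNA of these genes had a higher or lower share in neurite libraries than in soma libraries. It does not ask whether the RNA was present below the membrane. No member was called in WT, where 3.10% of all genes were (1 of 8 members, Myh11, and 19.6% of genes had an unadjusted p below 0.05, and DESeq2 and limma called no member). Tagln was 1.79-fold higher in WT neurites (log2 fold change 0.84 ± 0.69, adjusted p = 0.553), Acta2 1.54-fold (0.62 ± 0.67, adjusted p = 0.665) and Myh11 1.63-fold (0.70 ± 0.32, adjusted p = 0.251). Without WT neurites 1, the values of Acta2 and Tagln were -0.12 and -0.04. Pdgfrb had 0.97 ± 0.54 (adjusted p = 0.335). In WT neurites against WT soma, all 15 neuron markers (median log2 fold change -0.39) and all 9 tested macrophage markers (-0.37) were below 0. Of 16 proliferation genes 1 was below 0 (median 0.57), and of 14 Schwann cell markers 4 were (0.43). Satellite glia markers had 4 of 10 below 0 (0.27) and fibroblast markers 6 of 14 (0.11). The median of all genes tested was 0.01. Which cells the RNA of the neurite libraries came from was not tested.

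Neurite and soma libraries of the same genotype and number were taken as 1 culture, which the labels do not state. Within cultures the neurite-to-soma ratios were more even. For Tagln the log2 ratio was 0.98, 0.58 and 0.64 in WT cultures 1 to 3 and 0.83, 0.50 and 0.75 in het cultures 1 to 3. For Acta2 it was 0.98, 0.45 and 0.09 in WT and 0.65, 0.22 and 0.56 in het. Both were higher in neurites in 6 of 6 cultures, as were 12.1% of all genes. Same-numbered WT soma and neurite libraries deviated together, and the number as a block called no member in WT, where it called 9.44% of genes. With each culture as its own block, an alternative added after the data were seen, Tagln (0.73 ± 0.11, adjusted p = 0.000675) and Acta2 (0.51 ± 0.14, adjusted p = 0.0284) were called higher in WT neurites, where 9.31% of genes were called.

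The endothelial genes were near even between the compartments in WT, with 0.03 ± 0.36 for Kdr, 0.11 ± 0.38 for Cdh5 and 0.17 ± 0.36 for Cldn5, and Rgs5 had 0.13 ± 0.14. Each of these 4 values was smaller than its standard error. The pericyte gene Des rose 1.79-fold in WT neurites (adjusted p = 0.0476), and this call was lost in 5 of the 6 fits that left out 1 of the 6 libraries, all but WT neurites 2. Those 5 fits called 93 to 336 genes, against 495 with all libraries.

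In het no member was called between neurites and soma, where 0.638% of genes were. Rgs5 was 1.26-fold higher in het neurites (log2 fold change 0.33 ± 0.14, adjusted p = 0.302) and Cldn5 1.8-fold lower (-0.85 ± 0.35, adjusted p = 0.282). These were the 2 members with an unadjusted p below 0.05, as had 14.4% of all genes, and the 2 with groups that did not overlap, as had 22.3%. Tagln had 0.75 ± 0.69, Acta2 0.54 ± 0.68, Myh11 0.13 ± 0.35 and Pdgfrb 0.35 ± 0.57. Kdr had -0.34 ± 0.36 and Cdh5 -0.13 ± 0.38. With each culture as its own block, Tagln was called higher in het neurites (0.70 ± 0.11, adjusted p = 0.00302), where 4.20% of genes were called.

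Whether the neurite-to-soma ratio differed between genotypes was tested as an interaction, in which no gene was called (0.00%) and 1.26% of genes but no member had an unadjusted p below 0.05. The largest member difference was that of Cldn5, at -1.02 ± 0.50 on the log2 scale (adjusted p = 1.00 in edgeR), with ratios of -0.14, 0.64 and 0.03 in WT cultures and -0.53, -0.91 and -1.21 in het cultures. Myh11 had -0.57 ± 0.48, and Acta2 and Tagln -0.08 ± 0.95 and -0.09 ± 0.96. Pdgfrb had -0.62 ± 0.78, Kdr -0.37 ± 0.51, Cdh5 -0.24 ± 0.53 and Rgs5 0.20 ± 0.20. With errors of this size, the values do not show that the genotype difference was alike above and below the membrane.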

How the data were processed

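The tools named in the submitters' processing notes are CASAVA 1.8.2 and edgeR, and the build is mm10 (GRCm38). Neither aligner nor counter is given in the sources used here. For this series the authors deposited 1 table per compartment of raw counts per Ensembl transcript, each row with at least 5 counts in at least 3 of its 6 libraries. Per the file headers, the deposited tables also hold the authors' log2 fold changes of het over WT, p-values and false discovery rates, and 24 further per-sample columns that were not used.

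Counts of the 31420 named transcripts found in both tables were added up per gene name (16617 genes). Rows with no gene name, 0.574% to 0.694% of counts, were left out. Positions are from GENCODE M21, which held 97.6% of the transcripts. filterByExpr left 15990 genes, which were scaled by TMM and fitted with edgeR 4.0.16's robust quasi-likelihood test in R 4.3.3, with 1 mean per group and 12 libraries. P-values, 2-sided, had Benjamini-Hochberg adjustment over all genes tested, with a threshold of 0.05. The SE is the log2 fold change divided by the root of F. P-values measure the spread between these libraries, and the fit without a block treats the soma and neurite libraries of a culture as independent. A count of 0 allows up to 3 counts, 0.0905 to 0.21 CPM by library, for counting error only. Alternatives were DESeq2 1.42.0, limma 3.58.1 voom, RLE scaling, other filters, blocks, all transcripts, the groups of a contrast alone and each library left out.

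Same-numbered libraries were checked for shared deviations from their group means. The correlation was 0.23 to 0.341 for WT soma with WT neurites and 0.159 to 0.273 for WT with het soma, so these were taken as paired. It was -0.0373 to 0.224 for WT with het neurites, which were taken to share only a number. It was 0.0504 to 0.256 for het soma with het neurites, and not above 0.1 in every pair, so this check did not pair them. The block by number fitted 1 effect per number over all 12 libraries, so it also joined the libraries that this check did not pair. Neurites and soma of 1 genotype and number are called a culture, and a block by culture was added after the data were seen.

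The members and all lists were chosen with earlier results of these data known. All members are named in every comparison; of each of 6 lists of other vascular genes, up to 4 that passed with the smallest p are named, or at most 2 where none passed; Tagln, Rgs5 and Kdr, the members of each role with the highest mean CPM without regard to length, have their 5 most correlated genes named (log2 CPM, prior count 2). Genes outside this rule (Myl9, Crip1, Pgf, Mustn1, Mkl2 and others beside a block or a share) were chosen after their values were seen.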

Additional observations from a re-analysis of the deposited data

How the results depend on the processing

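Of the number of members called, the values that moved were these: 2 for WT neurites against soma and 1 (Tagln, 0.70, adjusted p = 0.00302) for het neurites against soma with each culture as a replicate block; 1 with DESeq2 and 2 with the replicate block for het against WT soma; and, for het against WT neurites, 0 at a mean of at least 10 CPM (which removes Myh11), 0 in the fit of the contrast's groups alone, and 0 to 2 with 1 library left out. In the pair of neurite groups, whose libraries share only a number, the replicate block called 3 members lower in het (Myh11, adjusted p = 0.00288; Acta2, 0.0096; Tagln, 0.0301), where 10.6% of genes were called and 7.75% called lower, against 3.27% without it. In the same block 9 smooth muscle list genes were lower and 2 higher (Mustn1 and Mkl2), and 4 ligands were lower. The block by number called no member in either comparison of neurites with soma or in the interaction. Of 672 alternative values of single genes, 37 changed sign, all with 1 library left out and none past the threshold. With 1 library left out, WT neurites against soma ranged from -0.22 to 0.48 for Cdh5, -0.40 to 0.43 for Kdr, -0.19 to 0.59 for Cldn5, -0.12 to 0.98 for Acta2, -0.040 to 1.49 for Tagln and -0.058 to 0.24 for Rgs5. Het neurites against soma ranged from -0.14 to 0.42 for Myh11, -0.39 to 0.074 for Cdh5 and -0.40 to 0.73 for Pdgfrb. Het against WT soma ranged from -0.11 to 0.44 for Cdh5, -0.030 to 0.56 for Kdr, -0.72 to 0.27 for Pdgfrb and -0.0019 to 0.13 for Rgs5, and het against WT neurites from -0.46 to 0.16 for Cdh5 and -0.45 to 0.23 for Kdr. The interaction ranged from -0.44 to 0.66 for Acta2, -0.74 to 0.78 for Tagln, -0.61 to 0.10 for Cdh5 and -0.76 to 0.060 for Kdr. The cause of these changes was not tested. Depth limits Pecam1, Pdgfrb, Cldn5 and Myh11 most.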
